A study of Homo sapiens with 6 samples.

Results

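The genes described here are the zinc transporters and metallothioneins, 34 of the 57500 genes in the files, taken by symbol. They comprise 10 exporters (SLC30A1 to SLC30A10, also called ZnT1 to ZnT10), 14 importers (SLC39A1 to SLC39A14, also called ZIP1 to ZIP14), 9 metallothioneins (MT1A, MT1E, MT1F, MT1G, MT1H, MT1M, MT1X, MT2A and MT3) and MTF1. RNA was measured by polyA-selected sequencing in 22Rv1, an established human prostate carcinoma cell line grown in RPMI-1640 medium with fetal bovine serum. Parental 22Rv1 cells, labelled as the control with a wild-type genotype, gave 3 libraries, and 22Rv1 cells derived from a liver metastasis (liver-derived here) gave 3 libraries. The series is titled for differences in prostate-specific membrane antigen among prostate cancer metastases. The labels speak of biological replicates without saying whether these were separate cultures, and name no separate derivations of the liver-derived line, so p-values measure only the spread between these libraries.

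SLC39 proteins carry zinc into the cytosol, from outside the cell or out of organelles, and SLC30 proteins carry it from the cytosol outwards or into organelles. Metallothioneins are small cysteine-rich proteins that bind zinc and copper in the cytosol, and MTF1 is the transcription factor that senses free zinc and binds metal response elements before the metallothionein genes and SLC30A1. Normal prostate epithelium is known for holding unusually much zinc, which restrains the oxidation of citrate, and prostate carcinoma is known for holding less.

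Library totals ranged from 28395265 to 53275252 counts, and parental replicate 2 stood apart. Over genes averaging 50 counts or more, its chi-square per degree of freedom against the other parental libraries was 55.3 and 61.8, whereas all pairs within a group without it gave 2.24 to 3.15. In this library the members followed base composition. All 10 members with a transcript GC content under 45% (and at least 1 CPM, the count scaled to library size) were lower in it than the mean of parental replicates 1 and 3, by a median log2 difference of -0.43. Of the 10 members at 50% GC or more, 9 were higher, with a median log2 difference of 0.30 over all 10. The rank correlation of this difference with GC content was 0.92 over 24 members and 0.80 over 16296 genes, where every point comes from the same library. Parental replicate 2 was the lowest parental library for 12 of the 24 members and the highest for 10. The members' median coefficient of variation was 13.0% over the parental libraries, 2.09% over parental replicates 1 and 3, and 3.07% over the liver-derived libraries. Results are therefore given with and without this library.

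**Figure D1:**
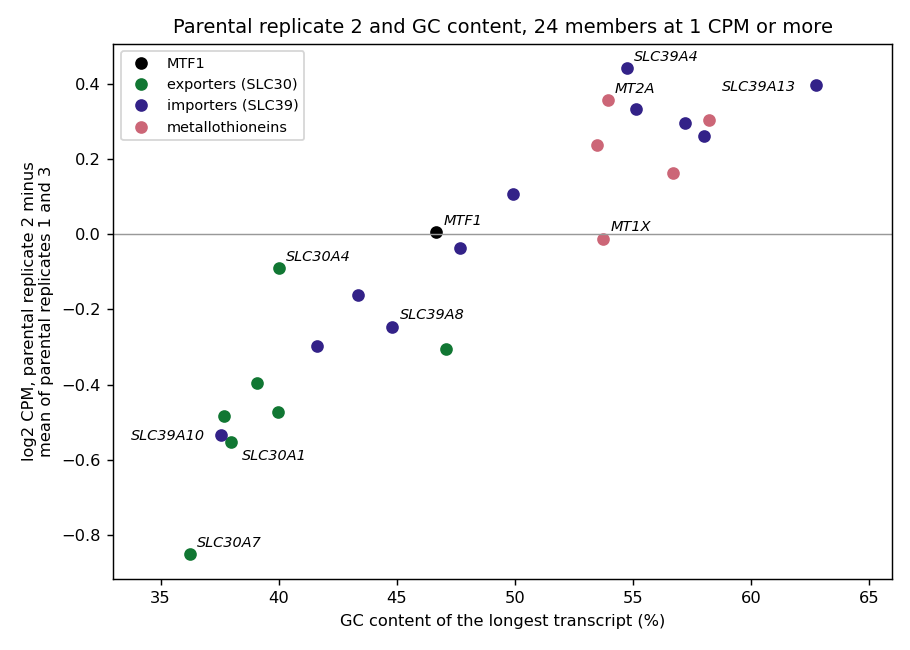
Each point is 1 of the 24 members at 1 CPM or more in parental cells, with the GC content of its longest transcript (%) on the x axis and the log2 CPM of parental replicate 2 minus the mean of parental replicates 1 and 3 on the y axis. The points rise from SLC30A7 at the lower left to SLC39A4 and SLC39A13 at the upper right, and every member under 45% GC lies below 0.

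The label of a prostate cancer line was set against marker genes. All 10 luminal prostate markers passed the filter on low counts. FOXA1 was at 413 CPM in parental and 377 CPM in liver-derived cells, and KLK3 fell from 43.0 to 7.52 CPM. Of 17 hepatocyte markers 5 passed the filter, 3 rose and 1 fell, where 17.5% of all genes rose and 21.3% fell. The fall was in ASGR1, from 1.47 to 0.178 CPM (log2 fold change -3.08). The summed level of the 17 hepatocyte markers was 52.5 to 62.1 CPM in parental and 76.6 to 80.7 CPM in liver-derived libraries. ALB made up most of it, APOB stayed under 0.1 CPM in both groups and FGA had no read. The 12 stromal, endothelial and leukocyte markers summed to 34.5 to 36.9 CPM in parental and 32.4 to 41.8 CPM in liver-derived libraries. Of 9 tested, 2 fell and none rose, beside the same shares of all genes, and CDH5 had no read. The part of other cell types in the results below was not tested. In bulk RNA, fewer cells of a type and less RNA per cell cannot be told apart.

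Levels of different genes were compared in TPM, which is scaled for both gene length and library size. In parental cells 4 members exceeded 100 TPM. These were the importers SLC39A1 at 341 ± 26.1 TPM, SLC39A7 at 321 ± 29.7 TPM and SLC39A6 at 279 ± 43.1 TPM, and the metallothionein MT2A at 248 ± 25.8 TPM (SD, n = 3). Neighbours in this order differed by less than the larger of their SDs. The most abundant exporter RNAs were SLC30A9 at 66.6 ± 12.7 TPM and SLC30A5 at 54.2 ± 11.7 TPM. At the lower end, 10 members had a mean under 1 TPM in both groups: SLC30A2, SLC30A3, SLC30A8, SLC30A10, SLC39A2, SLC39A5, SLC39A12, MT1A, MT1H and MT1M. Summed over the 14 importers, the level was 1232 to 1235 TPM in the parental libraries and 1017 to 1041 TPM in the liver-derived ones. The 10 exporters summed to 190, 129 and 193 TPM in parental replicates 1 to 3 and to 178 to 180.1 TPM in liver-derived cells. The 9 metallothioneins summed to 370.0 to 424 TPM in parental and 355 to 389.6 TPM in liver-derived cells. Only the importers' sums were apart between the groups.

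**Figure D2:**
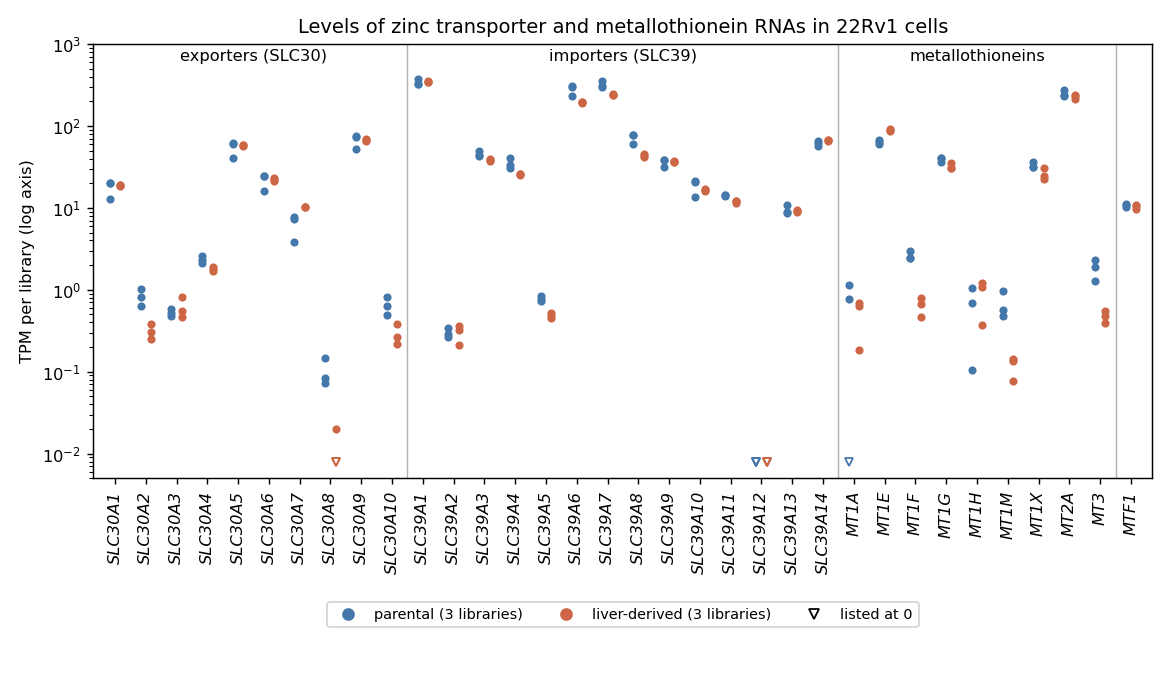
TPM per library (log axis) for the 34 members, ordered by family, with parental libraries in blue and liver-derived libraries in orange; open triangles stand for libraries listed at 0. SLC39A1, SLC39A7, SLC39A6 and MT2A form the top in both groups, and SLC39A12 is listed at 0 in all 6 libraries.

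Of the 34 members, 29 passed the filter on low counts and 5 did not. In liver-derived against parental cells, 2 members rose (SLC30A7 and MT1E), 9 fell (SLC30A2, SLC30A4, SLC30A10, SLC39A4, SLC39A6, SLC39A7, SLC39A8, MT1F and MT3) and 18 did not pass an adjusted p of 0.05 (edgeR's quasi-likelihood test, Benjamini-Hochberg adjustment over 19255 genes). Over all genes tested, 38.8% were called, 17.5% higher and 21.3% lower in liver-derived cells. The members' 11 calls among 29 are thus near the background share. The median log2 fold change was -0.10 over the 29 members and -0.0075 over all genes tested. The groups did not overlap in 15 of the 29 members, where 54.0% of all genes did not overlap. Of the 11 called members, 4 differed by at least 2-fold, and 13.8% of all genes were called with such a change. Without parental replicate 2, 4 members rose and 14 fell, among which were all 11 called with every library. The background share was then 59.8%.

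**Figure D3:**
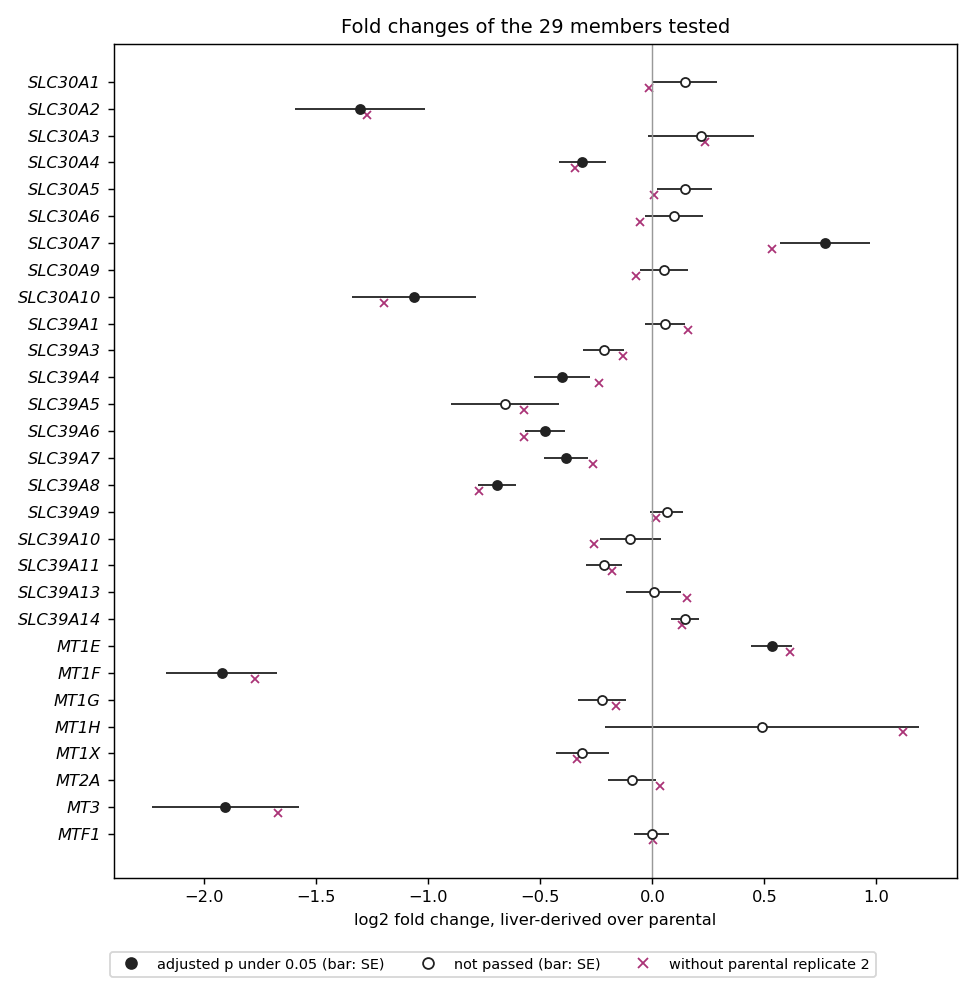
Fitted log2 fold change of the 29 tested members, liver-derived over parental, with its SE as the bar; filled circles passed an adjusted p of 0.05 and crosses give the value without parental replicate 2. The largest falls are MT1F, MT3, SLC30A2 and SLC30A10, and the crosses of the 11 called members stay on the same side of 0.

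Among the importers, 4 of 12 tested fell, none rose, and 8 did not pass, where 21.3% of all genes fell and 17.5% rose. The falls comprised SLC39A6 and SLC39A7, which are among the 3 most abundant importers, while SLC39A1 did not pass. The importers' median log2 fold change was -0.22. Leaving out parental replicate 2, 7 importers fell and 2 rose, where 31.0% of all genes fell and 28.8% rose.

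SLC39A8 (ZIP8, chromosome 4, 102251041 to 102431258, GRCh38) is a cell-surface carrier of zinc, manganese and cadmium. Its level was 137, 115 and 136 CPM in parental replicates 1 to 3 and 80.2, 82.4 and 77.3 CPM in liver-derived replicates 1 to 3. Every liver-derived library lay below every parental one. The log2 fold change was -0.69 (SE 0.09, adjusted p = 2.30e-04 by edgeR), a 1.62-fold fall, and -0.78 without parental replicate 2. It had the lowest adjusted p of the importers. SLC39A14 (ZIP14), its close relative that also carries iron and manganese, was at 122, 117 and 117 CPM in parental and 129, 133 and 132 CPM in liver-derived libraries. Those groups did not overlap either, with the liver-derived side higher, but the log2 fold change of 0.15 (SE 0.06) did not pass (adjusted p = 0.104 by edgeR). Without parental replicate 2 it was 0.13 and passed (adjusted p = 6.91e-05 by edgeR). The TPM ratio of SLC39A8 to SLC39A14 was 1.21, 1.06 and 1.24 in parental and 0.669, 0.665 and 0.628 in liver-derived libraries; this pair was chosen after the values were seen.

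SLC39A6 (ZIP6 or LIV-1, chromosome 18, 36108532 to 36129385) is a plasma membrane importer first known as an oestrogen-regulated gene of breast cancer. It stood at 302, 245 and 301 CPM in parental and 205, 198 and 206 CPM in liver-derived libraries, without overlap. It fell by 0.48 on the log2 scale (SE 0.09, adjusted p = 0.00275 by edgeR). With a GC content of 41.6%, it was low in parental replicate 2, and the fold change without that library was larger, at -0.57. SLC39A10 (ZIP10), the partner with which ZIP6 forms complexes, stood at 39.0, 26.9 and 39.5 CPM in parental and 32.0, 33.6 and 33.1 CPM in liver-derived libraries. Parental replicate 2 lay below and the other parental libraries above all liver-derived ones. The log2 fold change of -0.10 did not pass (adjusted p = 0.612 by edgeR), and without parental replicate 2 it was -0.26 and passed (adjusted p = 2.62e-06 by edgeR).

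SLC39A7 (ZIP7, chromosome 6, 33200445 to 33204439) releases zinc from the endoplasmic reticulum and Golgi into the cytosol. Its level was 235, 294 and 232 CPM in parental and 195, 195 and 192 CPM in liver-derived libraries, again without overlap. It fell by 0.38 on the log2 scale (SE 0.10, adjusted p = 0.0123 by edgeR) and by 0.27 without parental replicate 2, the highest library. The call was lost when any 1 liver-derived library was left out, with adjusted p up to 0.0552 by edgeR. Its exons overlap those of RXRB on the opposite strand over 244 bases, and since the strand setting of the counting is not known, reads of such a pair cannot be told apart there.

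SLC39A4 (ZIP4, chromosome 8, 144409742 to 144416895) takes up dietary zinc in the intestine and is mutated in acrodermatitis enteropathica. It stood at 45.4, 59.2 and 41.7 CPM in parental and 37.5, 36.5 and 36.6 CPM in liver-derived libraries. The groups were apart, by a small margin for parental replicate 3. The fitted log2 fold change was -0.40 (SE 0.12, adjusted p = 0.0307 by edgeR) and -0.24 without parental replicate 2. This call was also lost when any 1 liver-derived library was left out, with adjusted p up to 0.104 by edgeR.

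SLC39A1 (ZIP1, chromosome 1, 153959099 to 153968184), regarded as a main zinc importer of prostate cells, stood at 298, 366 and 297 CPM in parental and 342, 328 and 330.0 CPM in liver-derived libraries. Parental replicate 2 lay above and the other parental libraries below all liver-derived ones. Its log2 fold change was 0.06 (SE 0.09, adjusted p = 0.661 by edgeR), and without parental replicate 2 it was 0.16 and passed (adjusted p = 9.53e-08 by edgeR). As a share of the importers' summed TPM, SLC39A1 made up a mean of 27.6% in parental and 33.6% in liver-derived cells, SLC39A7 26.0% and 23.3%, and SLC39A6 22.6% and 18.8%. By library, SLC39A7 was at 24.6, 28.8 and 24.6% in parental replicates 1 to 3 and at 23.2 to 23.6% in liver-derived libraries. SLC39A6 was at 24.5, 18.6 and 24.7% against 18.45 to 19.2%, so its groups overlapped through parental replicate 2. For SLC39A1 the shares were 26.3, 30.1 and 26.5% against 33.3 to 34.1%. SLC39A1 overlaps CREB3L4 on the opposite strand over 280 bases. Of the 50-base runs of the longest SLC39A1 transcript, 71.3% also occur in the annotated gene AL358472.7. That gene was not among the counted genes found to overlap SLC39A1 exons. Whether the shared runs affected the SLC39A1 count was not tested.

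The other importers did not pass with all libraries. SLC39A3 (ZIP3), a plasma membrane importer, was at 53.2 to 64.7 CPM in parental and 48.0 to 51.4 CPM in liver-derived libraries, with a log2 fold change of -0.22 (adjusted p = 0.0892 by edgeR). It was -0.13 and passed without parental replicate 2 (adjusted p = 0.00315 by edgeR). SLC39A11 was at 21.1 to 23.2 and 18.1 to 19.5 CPM, with a log2 fold change of -0.22 (adjusted p = 0.0578 by edgeR), and it also passed without that library (-0.18, adjusted p = 0.00537 by edgeR). SLC39A5, a basolateral importer of gut and pancreas, held 28 to 32 reads in parental and 12 to 21 reads in liver-derived libraries, with a log2 fold change of -0.66 (adjusted p = 0.0570 by edgeR). In these 3 the groups did not overlap. SLC39A9 (0.07) and SLC39A13 (0.01), the carrier mutated in a form of Ehlers-Danlos syndrome, had log2 fold changes near 0. SLC39A9 overlaps ERH, and SLC39A5 overlaps the far more abundant ANKRD52, on the opposite strand. SLC39A2 held 6 or 7 reads in each parental and 4 to 8 in each liver-derived library, and SLC39A12, a brain importer, held none.

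Of the 9 exporters tested, 1 rose, 3 fell and 5 did not pass, beside 38.8% of all genes called. SLC30A7 rose and the falls were in exporters of low level. The exporters' median log2 fold change was 0.10, and -0.06 without parental replicate 2, where 1 rose and 4 fell.

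SLC30A7 (ZnT7, chromosome 1, 100896076 to 100981753) loads zinc into the early secretory pathway. It stood at 16.8, 9.21 and 17.3 CPM in parental and 24.7, 24.3 and 24.9 CPM in liver-derived libraries. Every liver-derived library was higher than every parental one, and parental replicate 2 was far the lowest. At 36.2% it also had the lowest GC content of the 34 members. The log2 fold change was 0.77 (SE 0.20, adjusted p = 0.0148 by edgeR). Leaving that library out, it was 0.53 (adjusted p = 1.52e-10 by edgeR), a smaller rise with a tighter spread. With limma on log2(TPM + 1), the rise did not pass (adjusted p up to 0.113 over the TPM fits). Its share of the exporters' summed TPM had a mean of 3.60% in parental and 5.76% in liver-derived cells.

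The other carriers of the early secretory pathway, SLC30A5 and SLC30A6, which form a heterodimer, did not pass. SLC30A5 was at 96.0, 68.5 and 94.4 CPM in parental and 95.6, 93.5 and 97.4 CPM in liver-derived libraries. SLC30A6 was at 35.4, 25.1 and 35.2 CPM in parental and 32.5, 35.5 and 34.5 CPM in liver-derived libraries. In both, parental replicate 2 was low and the remaining 5 libraries lay close together. The same held for SLC30A1 (ZnT1), the exporter of the plasma membrane, at 30.0, 20.2 and 29.7 CPM in parental and 30.0, 28.6 and 30.1 CPM in liver-derived libraries. Its log2 fold change was 0.15 (SE 0.14, adjusted p = 0.452 by edgeR), and -0.01 without parental replicate 2. SLC30A9, known as a mitochondrial carrier, was at 142, 109.6 and 146 CPM in parental and 135, 140.2 and 137 CPM in liver-derived libraries, with a log2 fold change of 0.05 (adjusted p = 0.740 by edgeR). Leaving out parental replicate 2, it was -0.07 and passed as a fall (adjusted p = 0.0164 by edgeR).

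SLC30A4 (ZnT4, chromosome 15, 45479611 to 45522807), a carrier of endosomes and secretory vesicles, was at 5.04, 4.94 and 5.54 CPM in parental and 3.93, 4.15 and 4.43 CPM in liver-derived libraries. The groups did not overlap, and the log2 fold change was -0.31 (SE 0.10, adjusted p = 0.0415 by edgeR). This was the weakest of the 11 calls, and 11 of 18 alternative analyses lost it, with adjusted p up to 0.180. Among these were the fits without any 1 library except parental replicate 2. SLC30A4 exons overlap those of HMGN2P46 over 215 bases and of AC025580.2 over 134 bases, both on the opposite strand. HMGN2P46 held 10 to 37 reads a library, beside 116 to 292 for SLC30A4. Whether the overlaps affected the SLC30A4 count was not tested. SLC30A2 (ZnT2, chromosome 1, 26037252 to 26046133), the vesicular carrier of the lactating mammary gland, held 29, 38 and 51 reads in parental and 20, 7 and 15 reads in liver-derived libraries. Its log2 fold change was -1.31 (SE 0.29, adjusted p = 0.00663 by edgeR) and -1.27 without parental replicate 2.

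SLC30A10 (ZnT10, chromosome 1, 219685427 to 219958647), known as a manganese exporter, was at 1.28, 0.815 and 0.986 CPM in parental and 0.632, 0.358 and 0.433 CPM in liver-derived libraries. These values rest on 37 to 62 and on 10 to 33 reads. The groups did not overlap, and the log2 fold change was -1.07 (SE 0.28, adjusted p = 0.0142 by edgeR) and -1.20 without parental replicate 2. The call was lost without parental replicate 1 (adjusted p = 0.0516 by edgeR) or liver-derived replicate 3 (adjusted p = 0.0595 by edgeR). It was also lost with limma on TPM without a filter (adjusted p = 0.109 by limma). SLC30A3, the carrier of synaptic vesicles, held 38 to 49 reads in every library and did not pass (log2 fold change 0.22). SLC30A8, the carrier of insulin granules, was below the filter, with 6, 7 and 13 reads in parental and 0, 1 and 0 reads in liver-derived libraries. Without the filter its difference passed (adjusted p = 9.80e-04 by edgeR), at a mean level of 0.101 TPM in parental cells.

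**Figure D4:**
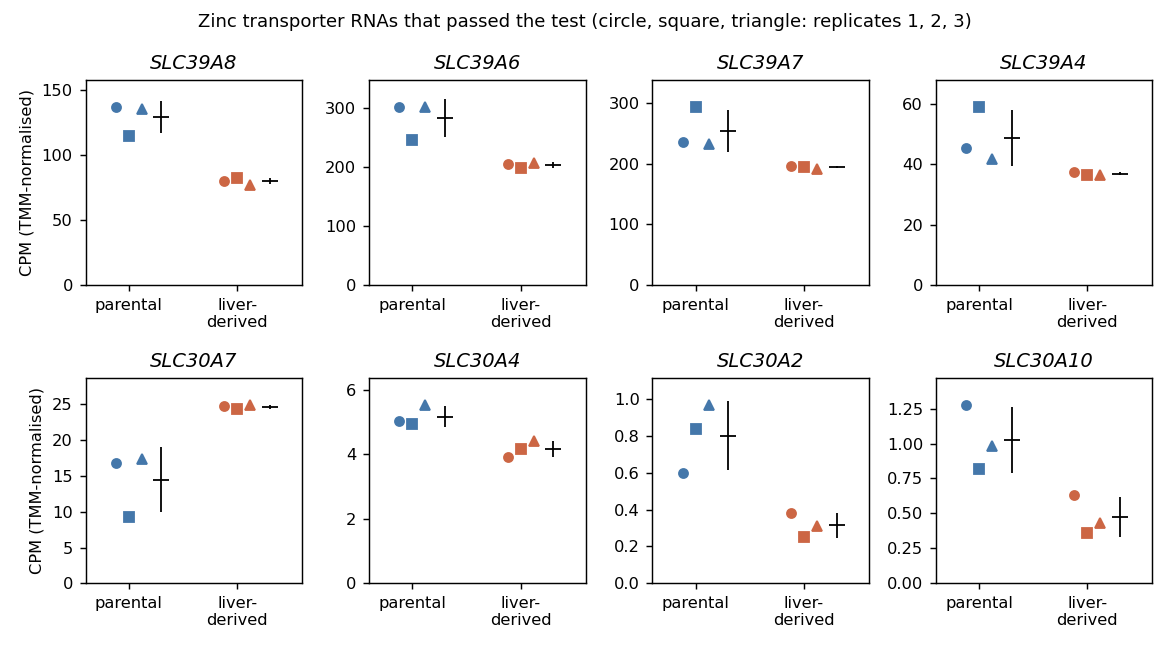
TMM-normalised CPM of the 8 called transporters in each library, parental on the left and liver-derived on the right of each panel; circle, square and triangle are replicates 1, 2 and 3, and the cross bar with its line is mean ± SD. No panel shows an overlap between groups, and the square of parental replicate 2 is low for SLC39A8, SLC39A6 and SLC30A7 and high for SLC39A7 and SLC39A4.

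The 9 metallothionein genes lie in 1 cluster on chromosome 16, which spans 95.1 kb from the start of MT3 (56589074) to the end of MT1X (56684196). Of the 7 tested, MT1E rose, MT1F and MT3 fell, and 4 did not pass, beside 38.8% of all genes called. The median log2 fold change was -0.22. The changes did not follow the order along the chromosome: MT1E lies between MT2A, which did not pass, and MT1F.

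The promoters are shown because MTF1 acts through metal response elements there. The core of this element was searched as TGCACNC and as TGCGCNC on both strands of the 250 bases before each RefSeq transcript start (GRCh38.p14). Such windows were found for 25 of the 34 members and for 3 of the 9 metallothioneins. No window was matched for MT1A, MT1E, MT1F, MT1G, MT1M, MT3, SLC39A4, SLC39A14 and SLC30A8. Over 35116 windows of all genes, 9.87% held TGCACNC, 16.8% held TGCGCNC, 24.8% held either, and 1.58% held at least 3 matches. The window of MT2A held 7 matches, that of MT1H 8, that of MT1X 4 and that of SLC30A1 1. SLC30A2 held 3 and MTF1 none. In all, 13 of the 25 members had a match in any of their windows. Counted by window, as the share over all genes is, 14 of their 34 windows held a match. A match is a description of letters, not evidence of a bound site. The windows are printed 5′ to 3′ on the gene's strand, with matches in capitals (on either strand, so that GTGTGCA and GGGTGCA are matches read from the other strand). That of MT1X stops before the gene as counted, and of MT2A only a stretch with 2 adjoining matches is printed, since its window lies within the first exon of the counted gene.
MT2A, chr16:56608416-56608437, plus strand: GTGTGCAgagccgggTGCGCCC
MT1H, chr16:56669564-56669813, plus strand: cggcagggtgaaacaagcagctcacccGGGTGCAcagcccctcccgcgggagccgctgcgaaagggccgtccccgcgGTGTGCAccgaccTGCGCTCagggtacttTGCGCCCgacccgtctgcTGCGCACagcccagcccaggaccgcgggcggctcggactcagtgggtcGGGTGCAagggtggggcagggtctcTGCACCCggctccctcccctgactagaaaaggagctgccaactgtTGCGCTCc
MT1X, chr16:56682220-56682423, plus strand: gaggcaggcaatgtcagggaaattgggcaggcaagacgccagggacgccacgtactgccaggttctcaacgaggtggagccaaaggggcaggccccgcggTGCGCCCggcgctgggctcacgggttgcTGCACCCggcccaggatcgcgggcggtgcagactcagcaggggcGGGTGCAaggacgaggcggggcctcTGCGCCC
SLC30A1, chr1:211579162-211579411, minus strand: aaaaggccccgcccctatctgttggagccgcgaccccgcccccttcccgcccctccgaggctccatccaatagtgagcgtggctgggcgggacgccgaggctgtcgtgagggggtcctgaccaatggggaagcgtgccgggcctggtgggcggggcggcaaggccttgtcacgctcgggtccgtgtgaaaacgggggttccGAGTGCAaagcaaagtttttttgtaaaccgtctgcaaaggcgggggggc
MT1H, with the most matches, held 1 to 11 reads a library, whereas MT2A, with 7, was the most abundant metallothionein RNA. MT1X, with 4 matches, was at 32.9 TPM in parental cells, below MT2A (248 TPM) and above MT1H (0.611 TPM). Whether the number of matches goes with the level was not tested.

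MT2A (56608199 to 56609497) stood at 83.9, 105 and 79.9 CPM in parental and 78.4, 86.5 and 87.4 CPM in liver-derived libraries. The groups overlapped. The log2 fold change was -0.09 (SE 0.11, adjusted p = 0.551 by edgeR), and it was 0.03 without parental replicate 2. MT2A made up a mean of 63.6% of the summed metallothionein TPM in parental and 60.2% in liver-derived cells.

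MT1E (56625475 to 56627112), the second most abundant, was at 17.0, 20.7 and 17.9 CPM in parental and 26.0, 26.8 and 27.6 CPM in liver-derived libraries. All liver-derived libraries were higher than all parental ones. MT1E rose by 0.53 on the log2 scale (SE 0.09, adjusted p = 0.00173 by edgeR), which is 1.45-fold, and by 0.62 without parental replicate 2. The call was kept in all 18 alternative analyses. The TPM ratio of MT1E to MT2A, a pair chosen after the values were seen, was 0.250, 0.243 and 0.277 in parental and 0.409, 0.383 and 0.389 in liver-derived libraries. Its share of the summed metallothionein TPM had a mean of 16.3% in parental and 23.7% in liver-derived cells. Metallothionein RNAs resemble each other: 10.6% of the 50-base runs of the longest MT1E transcript also occur in other genes, 14.7% for MT1X, 14.3% for MT1G and 4.68% for MT2A. How reads from such runs were assigned is not given in the sources used here.

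MT1F (56657694 to 56660698) had the largest fitted fall of the 29 tested members. It was at 1.24, 1.65 and 1.25 CPM (60, 75 and 66 reads) in parental and 0.364, 0.251 and 0.433 CPM (19, 7 and 21 reads) in liver-derived libraries. The lowest parental library lay far above the highest liver-derived one. The log2 fold change was -1.92 (SE 0.25, adjusted p = 3.06e-04 by edgeR), a 3.79-fold fall, and -1.77 without parental replicate 2. Only 0.0656% of its 50-base runs were shared with other genes. MT3 (56589074 to 56591088), the form known as a growth inhibitory factor of brain, held 31, 56 and 50 reads in parental and 15, 7 and 10 reads in liver-derived libraries. Its log2 fold change was -1.91 (SE 0.33, adjusted p = 0.00172 by edgeR) and -1.67 without parental replicate 2. None of its 50-base runs was shared. Both falls thus concern RNAs at the lower end, where MT1F went from 2.63 ± 0.329 to 0.648 ± 0.169 TPM and MT3 from 1.84 ± 0.519 to 0.474 ± 0.0793 TPM (SD, n = 3).

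MT1X was at 17.6, 16.0 and 14.9 CPM in parental and 11.5, 15.2 and 12.5 CPM in liver-derived libraries, with a log2 fold change of -0.31 (adjusted p = 0.0659 by edgeR). Omitting parental replicate 2, it was -0.34 and passed (adjusted p = 0.0299 by edgeR). MT1G was at 7.37 to 8.75 CPM in parental and 6.55 to 7.62 CPM in liver-derived libraries, with a log2 fold change of -0.22 (adjusted p = 0.131 by edgeR). In both the groups overlapped. MT1H did not pass at 1 to 11 reads. Below the filter, MT1M held 6, 7 and 13 reads in parental and 2, 1 and 1 reads in liver-derived libraries, and it passed without the filter (adjusted p = 0.0189 by edgeR). MT1A held 0 to 6 reads a library.

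**Figure D5:**
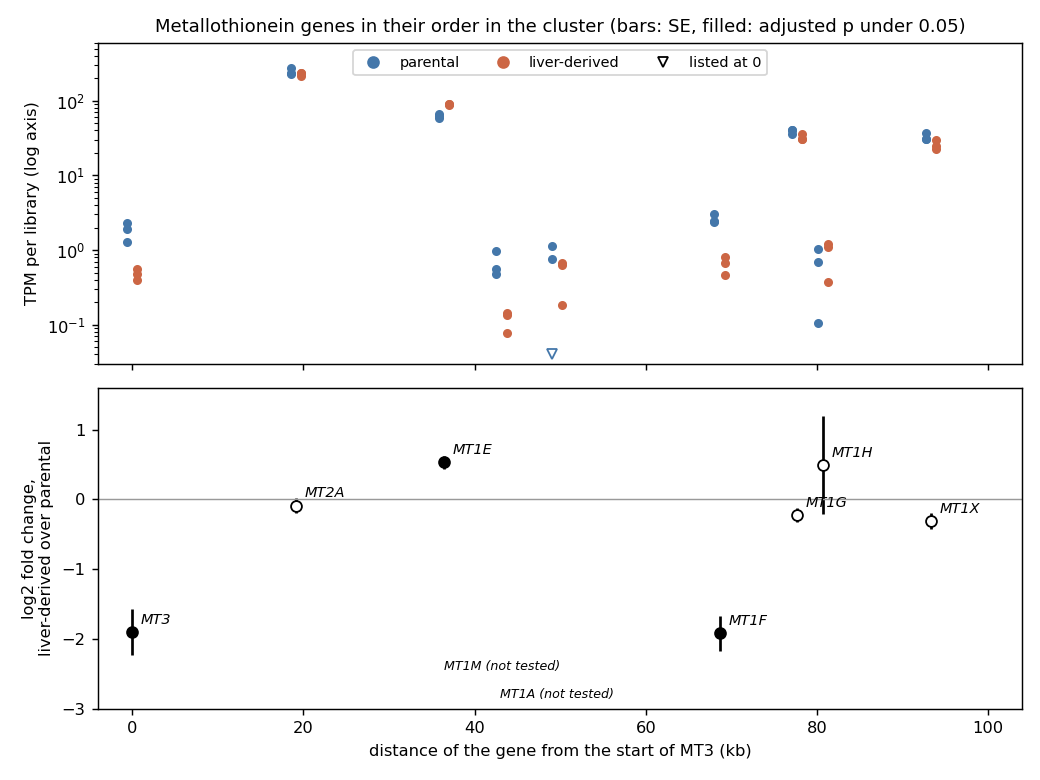
The metallothionein genes by distance from the start of MT3 (kb), with TPM per library on a log axis above and the fitted log2 fold change with SE below; filled circles passed an adjusted p of 0.05 and open triangles stand for libraries listed at 0. MT2A, MT1E, MT1G and MT1X carry most of the RNA, and the called genes MT3, MT1E and MT1F are not all neighbours.

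MTF1 (chromosome 1, 37809567 to 37859620), the zinc-sensing factor, was at 23.3, 23.8 and 24.2 CPM in parental and 23.8, 22.3 and 25.0 CPM in liver-derived libraries. The groups overlapped, and the log2 fold change was -0.0034 with an SE of 0.08 (adjusted p = 0.977 by edgeR). Its sign changed between scalings, so no direction is given.

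Other genes of zinc and copper handling were read from the same fit. Of 14 tested, 3 rose, 2 fell and 9 did not pass, with a median log2 fold change of 0.07 and 38.8% of all genes called. Omitting parental replicate 2, 7 rose and 3 fell, with 59.8% of all genes called. SLC31A2, a copper carrier of endosomes and lysosomes, rose from 5.90 ± 0.613 to 11.7 ± 0.248 CPM (log2 fold change 0.99, adjusted p = 6.49e-05 by edgeR). SOD1, the copper- and zinc-binding superoxide dismutase, rose from 262 ± 27.2 to 424 ± 2.40 CPM (log2 fold change 0.69). COX17, a copper chaperone of mitochondria, fell from 71.1 ± 6.39 to 54.2 ± 0.706 CPM (log2 fold change -0.39). The metallothionein pseudogene MT1L, which is transcribed, fell as well, from 19 to 35 reads a library in parental to 6 to 12 in liver-derived cells (log2 fold change -1.39, adjusted p = 0.0133 by edgeR).

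Genes known to respond to metals, oxidants and misfolded proteins were also counted. Of 19 tested, 5 rose, 3 fell and 11 did not pass, beside 38.8% of all genes called, and the median log2 fold change was 0.11. With parental replicate 2 left out, 10 rose and 4 fell, beside 59.8% of all genes called. NQO1, a quinone reductase, rose from 76.1 ± 2.13 to 544 ± 6.87 CPM (log2 fold change 2.84). TXNRD1, the cytosolic thioredoxin reductase, rose from 432 ± 31.9 to 848 ± 4.88 CPM (log2 fold change 0.97). EGR1, an immediate early factor, fell from 16.9 ± 0.394 to 7.85 ± 0.582 CPM (log2 fold change -1.10). Among the chaperones of this list HSPA1A rose from 15.9 to 23.0 CPM (log2 fold change 0.54), and HSPB1 and BAG3 fell (-0.55 and -0.34). Its more abundant relative HSPA1B, at 165 CPM in parental and 166 CPM in liver-derived cells, did not pass (log2 fold change 0.01). How far reads of HSPA1A and HSPA1B can be told apart was not tested. With all libraries HSPA6, HSPA8, HSPH1, DNAJB1 and HSP90AA1 did not pass either.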

How the data were processed

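Raw counts per gene, 1 file for each library, were deposited by the authors, with 1 table of TPM values for the same libraries, whose second parental column also holds spreadsheet errors in rows without a gene. TPM recomputed from counts and lengths matched the deposited TPM for 100% of values (relative tolerance 1e-04). The table's 391182 rows without a gene were left out. Per the submitters' processing notes, Trimmomatic 0.36, STAR 2.5.2b, featureCounts of Subread 1.5.2 and GRCh38 were used; the strand setting and annotation release were not given in the sources used here.

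Counts were fitted with edgeR 4.0.16 (R 4.3.3): filterByExpr, TMM, robust quasi-likelihood test, group as the only term, Benjamini-Hochberg adjustment over 19255 genes, threshold 0.05. CPM values are TMM-normalised. TPM was tested with limma 3.58.1 on log2(TPM + 1) where at least 3 libraries reached 1 TPM, a scale that understates changes of low genes. On simulated counts, the fit recovered 64.2% of 1.5-fold, 76.1% of 2-fold and 93.9% of 4-fold changes, with 12 false calls over 18944 genes. The simulated libraries held no skew by GC content, unlike parental replicate 2. Only 67, 67 and 66 genes were changed at 1.5-, 2- and 4-fold, against 7476 genes called in the data. These rates therefore cannot be carried over to the data. GC content came from GENCODE release 29.

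Alternatives were other scalings and filters, DESeq2 1.42.0, limma-voom, TPM with other settings, each library left out and the replicate number as a block. A GC correction was added after the data were seen. All 34 members are named. Of other lists, up to 3 genes past the threshold with at least 1 CPM and the largest change are named. MT1L and the chaperones of the stress list were added after their values were seen. Members and lists were chosen with earlier results of these data known. No library pair within a group agreed within sampling noise, so none were merged and each counted as 1 replicate. This does not show that they came from separate cultures. Another condition mentioned in the series' design text was not analysed here. A marker gene is not reported here.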

Additional observations from a re-analysis of the deposited data

How the results depend on the processing

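All 11 called members kept their direction under all alternatives that could be fitted. Of these, 6 kept their call throughout and 5 lost it in some (SLC30A4, SLC30A7, SLC30A10, SLC39A4 and SLC39A7). Of the 18 members not called, 11 passed in some alternative, 1 of them (SLC30A9) with the opposite sign, and 7 changed sign in some. With 1 library left out, the calls ranged from 5600 to 11870 over all genes (higher 2432 to 5714, lower 3168 to 6156), from 7 to 18 over the members (higher 2 to 4, lower 5 to 14), from 2 to 5 over the exporters and from 2 to 9 over the importers. The upper values came without parental replicate 2; leaving out liver-derived replicate 3 gave the 7. The lists ranged from 3 to 10 for other zinc and copper genes, 6 to 15 for iron and manganese, 7 to 14 for stress and 5 to 14 for citrate. The correction for GC content, added after the data were seen, gave 10828 genes called (56.2%, 5552 higher), 19 of 29 members called (6 higher), 9 importers, 9 zinc and copper genes, 15 iron and manganese genes and 14 stress genes. With limma on TPM, 1 member was called higher at a pseudocount of 1, at 0.1 and without a filter. It called 0 exporters at either pseudocount (6 tested, 1 with an unadjusted p under 0.05, against 4 called by edgeR) and 1 without a filter. A filter at 1 CPM left 2 exporters called, library size alone gave 7 importers, and no filter gave 5 metallothioneins. The cause was not tested.

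Signs that turned were all in members not called. With 1 library left out, log2 fold changes ranged from -0.014 to 0.24 for SLC30A1, -0.056 to 0.17 for SLC30A6, -0.071 to 0.13 for SLC30A9, -0.083 to 0.15 for SLC39A13, -0.0022 to 1.12 for MT1H, -0.17 to 0.034 for MT2A and -0.041 to 0.051 for MTF1. Library size alone gave -0.0045 for SLC30A9 and -0.043 for SLC39A13. SLC39A13 was at -0.0081 with upper-quartile factors, -0.0063 without a filter, and -0.021, -0.023 and -0.021 in the TPM fits (pseudocount 1, pseudocount 0.1 and no filter). MTF1 was at 0.0071 with RLE factors and 0.0078 with DESeq2.

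The replicate numbers share only a number: correlations of same-numbered libraries were -0.0084, 0.0092 and 0.072. With the replicate block, 7052 genes and 10 members were called, the member lost being SLC30A4. Members under about 1 CPM rest on few reads a library (7 to 75 for MT1F), which limits their precision, and liver-derived replicate 2 had the fewest counts.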

Other observations

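Genes of iron and manganese handling were counted in the same edgeR fit. SLC39A14 also carries both metals, and SLC39A8 and SLC30A10 carry manganese. Of 19 tested, 7 rose, 2 fell and 10 did not pass, with a median log2 fold change of 0.19 and 38.8% of all genes called. SLC11A2 (DMT1), the carrier of ferrous iron and manganese, rose from 112 ± 8.61 to 211 ± 4.64 CPM (log2 fold change 0.91, adjusted p = 2.05e-05 by edgeR). HMOX1, the haem-degrading oxygenase, rose from 7.11 ± 0.332 to 11.0 ± 0.836 CPM (log2 fold change 0.63). TFR2, a transferrin receptor known from liver, fell from 32.9 ± 5.04 to 12.3 ± 1.09 CPM (log2 fold change -1.41). Without parental replicate 2, 11 rose and 4 fell, with 59.8% of all genes called.

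Of 16 genes of citrate handling, 4 rose, 5 fell and 7 did not pass, with a median log2 fold change of -0.01 and again 38.8% of all genes as the background. SLC1A1, a carrier of glutamate and aspartate, rose from 10.3 ± 0.453 to 27.3 ± 0.993 CPM (log2 fold change 1.40). SLC13A3, a carrier of dicarboxylates, rose from 21.5 ± 1.79 to 29.9 ± 0.519 CPM (log2 fold change 0.47). IDH2, the mitochondrial isocitrate dehydrogenase, fell from 133 ± 15.2 to 75.9 ± 2.63 CPM (log2 fold change -0.81). Without parental replicate 2, 7 rose and 7 fell, where the background was 59.8%.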
